A study of Homo sapiens with 4 samples.

Results

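The genes described here are interferon-stimulated genes and the RNA sensing genes that act upstream of them. They were taken by symbol from a list of 49, with every probe set that the platform annotation ties to 1 of these symbols alone (DDX58 is given under its current symbol RIGI). Of the 49 symbols, 48 were found, with 80 probe sets, out of 19775 genes with such a probe set on the array, and STAT2 was not analysed here. HCT116 cells, a line established from a human colorectal carcinoma, had been transfected by the same lipid reagent either with a control siRNA (2 arrays, biological duplicates) or with an siRNA against TET1, which encodes a dioxygenase that oxidises methylated cytosine (2 arrays). All 4 samples therefore carried an siRNA, the design has no untransfected group, and an interferon response common to both transfections could not be measured. The series asked which genes depend on TET1; the comparison below asks whether antiviral genes differed between the siRNA groups.

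Double-stranded RNA that enters a cell, long or with foreign ends, can be sensed by the cytosolic helicases RIGI and IFIH1 (MDA5) or by TLR3 in endosomes. The adaptor MAVS and the kinase TBK1 then activate the transcription factors IRF3 and IRF7, which switch on interferon genes. Secreted interferon acts through its receptors and JAK kinases on transcription factors that include STAT2 and IRF9, which act at the interferon-stimulated response element (ISRE) in front of genes such as IFIT1, MX1 and ISG15. Some short RNAs used for gene silencing are known to set off this pathway, which is why these genes are often read as a check on siRNA experiments.

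Each array gave 1 signal per probe set, in arbitrary units on a linear scale that the authors had scaled alike on every array, with array medians of 13.9 to 15.5. The TET1 transcript checked the labels: its brighter probe set read 58.1 and 59.6 in the control arrays and 14.6 and 15 after TET1 siRNA. All 8 colorectal epithelial markers lay above the filter used here, which keeps genes whose mean log2(signal + 16) over the 4 arrays exceeded 4.86, a signal of 13.1. Of these 8, CDH1 (-1.16) and ELF3 (-0.41) were lower and KRT8 (0.32) higher after TET1 siRNA, with limma adjusted p = 2.78e-05, 0.0194 and 0.00887. Of cell types that could make or answer interferon in a mixed sample, 0 of 6 myeloid and 0 of 5 plasmacytoid dendritic cell markers did, as did 2 of 7 lymphocyte, 3 of 6 fibroblast and 1 of 5 endothelial markers. Summed signals with control and TET1 siRNA were 43.9 to 58.9 and 42 to 46 for the myeloid list, 23.4 to 33.8 and 21.4 to 26.8 for the dendritic list, and 64.3 to 84.2 and 80.5 to 92.1 for the lymphocyte list. They were 312.4 to 353.6 and 386 to 491.6 for the fibroblast list, where the rise was COL1A1 alone (means 277.6 and 394.6, log2 difference 0.47) and the other 5 markers read 19 or less on every array, and 30.1 to 47.9 and 24.3 to 36.6 for the endothelial list; their part in the results was not tested. In these bulk samples fewer cells that make a transcript and less of it per cell cannot be told apart, nor can loss of TET1 and other effects of the siRNA against it.

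The antiviral genes did not move in 1 direction. Of the 48 genes, 37 lay above the filter and were tested with limma among 12389 genes, and at a Benjamini-Hochberg adjusted p below 0.05 TET1 siRNA left 5 higher and 5 lower. SAMD9, IFI6, TBK1, UBE2L6 and ISG15 rose; IFITM1, EIF2AK2, PARP9, OAS3 and IRF9 fell. These are 13.5% of the tested members in each direction (27.0% in all), near the background of all genes tested, of which 11.2% were higher and 10.6% lower (21.9% in all). The median log2 difference of the tested members was -0.0065, against 0.0098 over all genes tested, and 18 lay above 0 and 19 below. Both arrays of 1 group lay apart from both of the other in 10 members upwards and 12 downwards, or 59.5% in all, against 30.9% of all genes tested upwards, 28.2% downwards and 59.0% in all. A comparison of 2 against 2 arrays cannot give an exact permutation p below 0.333 by itself, so every p here depends on the variance that limma borrows from other genes. With variances not moderated 0 members passed (limma, 11 at unadjusted p below 0.05, lowest adjusted p 0.122). A log2 difference here is taken after adding 16 to each signal, so for dim genes it is smaller than the true change.

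**Figure D1:**
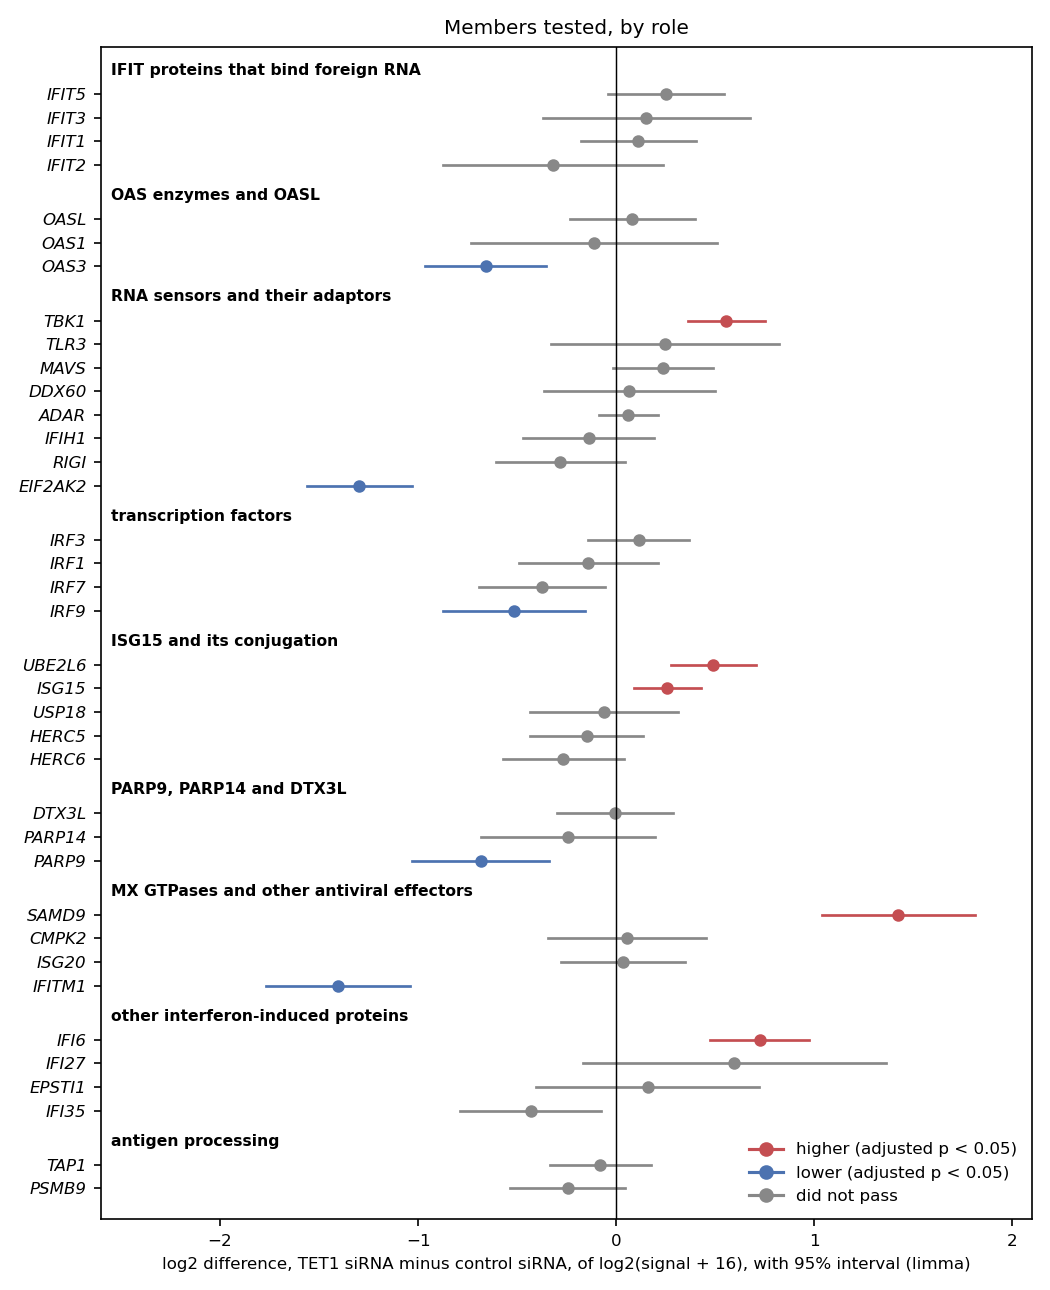
Log2 differences (TET1 siRNA minus control siRNA, x axis) of the 37 members tested, grouped by role, with limma's 95% intervals. Red marks the 5 that were higher, blue the 5 that were lower and grey the 27 that did not pass; the RNA sensors and the antiviral effectors hold 1 higher and 1 lower member each, and the IFIT group holds neither.

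**Figure D2:**
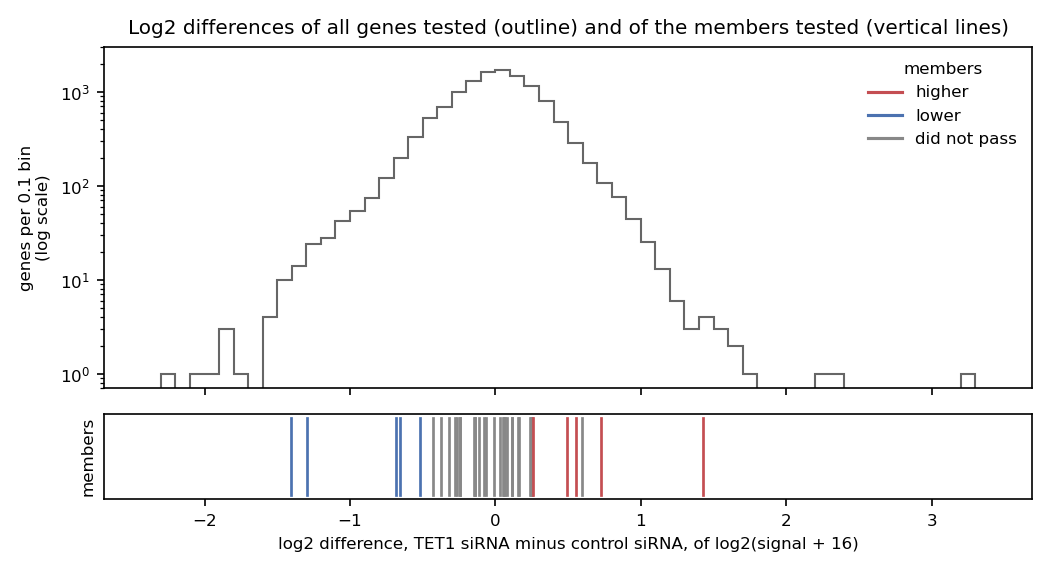
The outline gives the number of genes per bin of log2 difference for all 12389 genes tested (log scale), and each vertical line in the lower panel is 1 of the 37 members tested. The members spread on both sides of 0, from -1.40 (IFITM1) to 1.42 (SAMD9), inside the range of all genes (-2.22 to 3.29).

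Among the effectors that restrain viruses directly, the largest rise and the largest fall stood side by side. SAMD9, a cytoplasmic protein that restricts poxviruses and slows cell growth, read 79.8 and 49.2 in the controls and 203.4 and 189.1 after TET1 siRNA. Both TET1 siRNA arrays were far above both controls, although the controls differed from each other (64.5 ± 21.6 against 196.2 ± 10.1, SD, n = 2). The log2 difference was 1.42 (SE 0.18, limma adjusted p = 2.21e-04). The other SAMD9 probe set gave 46 and 23.6 against 120.3 and 114, a log2 difference of 1.43 in the fit of single probe sets (limma adjusted p = 0.00114). Its neighbour and paralogue SAMD9L stayed below the filter in all of its probe sets, with 9.1 and 10.4 against 12 and 9.6 in the brightest.

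IFITM1 encodes a membrane protein that blocks the fusion of viruses with cell membranes. Its probe set read 121.1 and 120.2 in the controls and 40.6 and 31.1 after TET1 siRNA, so the groups were far apart and the controls nearly equal. The signal was 3.37-fold lower by the group means, with a log2 difference of -1.40 (SE 0.17, limma adjusted p = 1.55e-04). IFITM2 and IFITM3 are close copies of IFITM1, so part of any of their signals can come from the others, and neither passed (limma adjusted p = 0.118 and 0.336). Of the other effectors, CMPK2 (a mitochondrial nucleotide kinase) and ISG20 (an exonuclease) did not pass, with log2 differences of 0.05 and 0.03 and 95% intervals of -0.35 to 0.45 and -0.28 to 0.35. The second ISG20 probe set was at 0.63 (111.2 and 55.7 against 154.1 and 112.9) and did not pass either (limma adjusted p = 0.101).

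The RNA sensors and the proteins that relay their signal were split as well. EIF2AK2 (PKR), a kinase that double-stranded RNA activates to stop translation, had the second largest fall. Its brightest probe set read 253.9 and 263.1 against 102.1 and 89.8, a 2.69-fold lower signal with a log2 difference of -1.30 (SE 0.12, limma adjusted p = 3.90e-05). The other EIF2AK2 probe sets did not follow it. One read 191.9 and 158.4 against 146.3 and 186.3, where the groups overlap (log2 difference -0.07, limma adjusted p = 0.799), and the dimmest read 27.7 and 26.5 against 29.1 and 14.8 (-0.21, limma adjusted p = 0.62). The fall of EIF2AK2 therefore rests on 1 of 3 probe sets; averaging its 3 probe sets, the log2 difference was -0.53, which still passed.

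TBK1, the kinase that phosphorylates IRF3, read 315.3 and 315.6 in the controls and 481.9 and 461.1 after TET1 siRNA. The control arrays were almost identical and both TET1 siRNA arrays lay well above them (log2 difference 0.56, SE 0.09, limma adjusted p = 0.00113). The sensors themselves did not pass. RIGI read 89.3 and 91.9 against 75.6 and 68 (log2 difference -0.28, 95% interval -0.61 to 0.05), and its other probe sets were at -0.17 and 0.11. IFIH1 was at -0.14 (-0.47 to 0.19) and TLR3, dim at 8.8 and 19.2 against 18.3 and 19.9, at 0.25 (-0.33 to 0.82). ADAR, the enzyme that edits double-stranded RNA so that IFIH1 ignores it, was bright and close between groups, with 1232.8 and 1232.2 against 1281.1 and 1292.6 (0.06, -0.09 to 0.21). DDX60, a helicase that aids RIGI signalling, was at 0.07 (-0.36 to 0.50). The adaptor MAVS had 4 probe sets, all at log2 differences above 0 (0.09 to 0.47), none of which passed. DHX58 (LGP2), a relative of RIGI, was below the filter at 6.4 and 2.8 against 1.1 and 2.4.

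The 2-5A synthetases, which make the messenger that activates RNase L, gave 1 fall. OAS3 read 127.9 and 121.4 against 73.7 and 72.4, with both pairs tight and wide apart (1.71-fold lower; log2 difference -0.66, SE 0.14, limma adjusted p = 0.00578). OAS1 was dim and its groups overlapped (11.9 and 20.9 against 8.6 and 19.9), OAS2 was below the filter, and OASL, a relative without synthetase activity, read 154.3 and 123 against 161.1 and 133.8 (0.08, limma adjusted p = 0.75). With the mean of both its probe sets, the second of them below the filter, OAS3 no longer passed (-0.44, limma adjusted p = 0.0726).

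ISG15 is a ubiquitin-like protein that is attached to other proteins by the conjugating enzyme UBE2L6 and the ligase HERC5 and removed by USP18. UBE2L6 read 242.9 and 244.8 against 362.3 and 336.4, a clear separation (log2 difference 0.49, SE 0.10, limma adjusted p = 0.0042). ISG15 itself was bright in both groups, at 1217.4 and 1370.7 against 1513.7 and 1583, and rose by 0.26 (SE 0.08, limma adjusted p = 0.0335). That is a 1.20-fold higher signal, and the call was lost when control siRNA replicate 1 (limma adjusted p = 0.181), TET1 siRNA replicate 1 (0.0841) or TET1 siRNA replicate 2 (0.178) was left out. HERC5, HERC6 and USP18 did not pass, with log2 differences of -0.15, -0.27 and -0.06.

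PARP9 and DTX3L form a complex that modifies histones and viral proteins, and their genes lie head to head. PARP9 read 89.8 and 106.3 against 54.9 and 54.7, so both TET1 siRNA arrays were lower (1.79-fold; log2 difference -0.68, SE 0.16, limma adjusted p = 0.00947; 0.0706 without control siRNA replicate 2). Its second probe set pointed the same way without passing (44.5 and 30 against 17.4 and 28.2, -0.46, limma adjusted p = 0.219). DTX3L read 145.4 and 120.7 against 128.8 and 135, overlapping groups with a log2 difference of -0.01 (95% interval -0.30 to 0.29). The interval for PARP9 was -1.03 to -0.34; the difference between the genes was not tested. PARP14, a relative of PARP9, was at -0.24 (-0.68 to 0.20).

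Of the transcription factors of the pathway, IRF9, the DNA-binding partner of STAT2, read 152.4 and 158.1 against 84.6 and 126.5. The TET1 siRNA arrays were both lower but differed from each other (155.2 ± 4.03 against 105.5 ± 29.6, SD, n = 2; log2 difference -0.52, SE 0.16, limma adjusted p = 0.0439). This call was lost without control siRNA replicate 1 (limma adjusted p = 0.105), control siRNA replicate 2 (0.15) or TET1 siRNA replicate 1 (log2 difference -0.26, limma adjusted p = 0.33). IRF7, which amplifies interferon production, read 112.4 and 107.4 against 87.5 and 75.1 and did not pass (-0.37, limma adjusted p = 0.0885). IRF1 was at -0.14 and IRF3, which is activated by phosphorylation rather than by its level, at 0.11, with 95% intervals of -0.49 to 0.21 and -0.14 to 0.37.

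**Figure D3:**
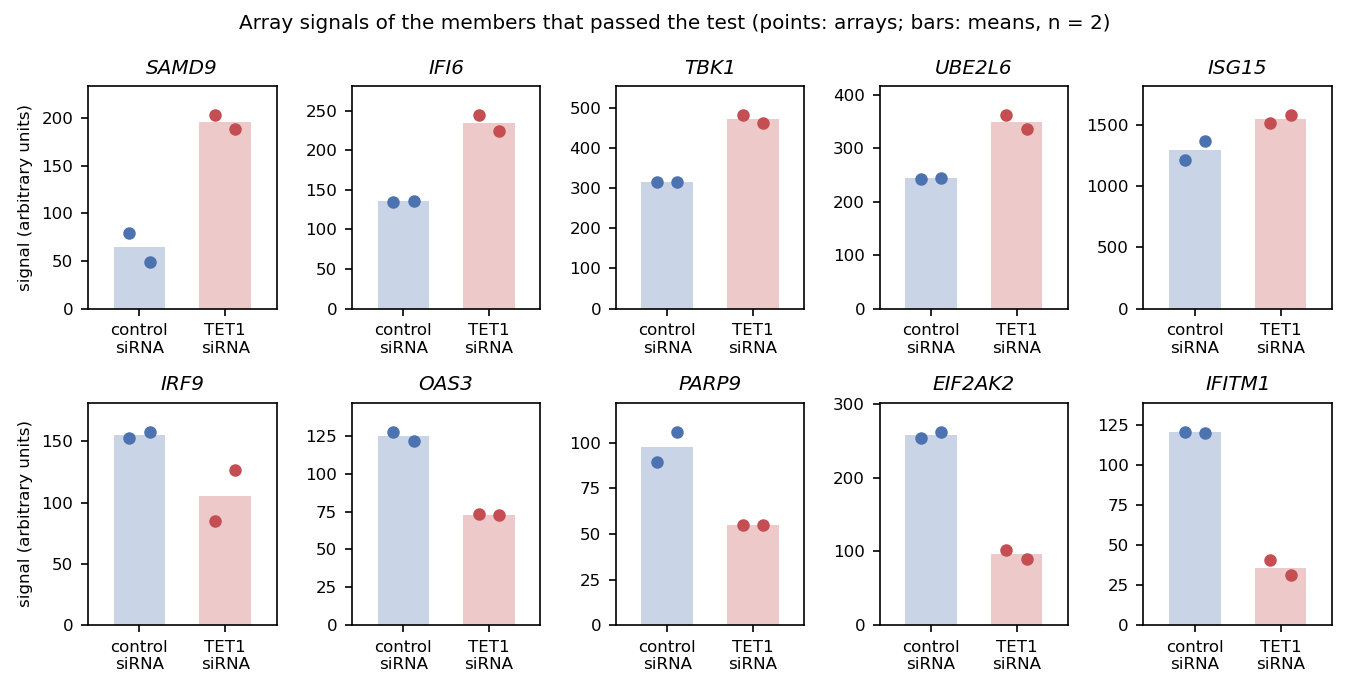
Signals (arbitrary units, linear axes from 0) of the 10 members that passed, 1 panel per gene, with points for the 2 arrays of each group and bars for their means. In all 10 panels the groups do not overlap, but these genes were picked by the test on the same arrays. Groups did not overlap in 59.0% of all genes tested. The arrays of 1 group lie visibly apart in IRF9 (84.6 and 126.5 with TET1 siRNA) and in SAMD9 (79.8 and 49.2 with control siRNA).

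The IFIT genes, whose products bind RNA that lacks the marks of cellular messages and which are among the first to answer interferon, did not pass in any of their probe sets. IFIT1 read 123.4 and 107.4 in the controls and 126.2 and 125.2 after TET1 siRNA. That is a log2 difference of 0.11 with a 95% interval of -0.18 to 0.40, so a log2 difference of 1 lies outside the interval. IFIT5 was at 0.25 (-0.04 to 0.55), IFIT3 at 0.15 (-0.37 to 0.68) and IFIT2 at -0.32 (-0.88 to 0.24), the last 2 from dim probe sets, and the second probe set of each of IFIT2 and IFIT3 had the opposite sign (0.27 and -0.18).

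Other interferon-induced genes were mixed. IFI6, a small membrane protein of the endoplasmic reticulum and mitochondria that protects against cell death, read 134.9 and 136.1 against 244.4 and 224.8. The controls were close together and both TET1 siRNA arrays were higher (1.73-fold; log2 difference 0.72, SE 0.11, limma adjusted p = 0.001). IFI27, a relative of IFI6, was dim and rested on a single array: it read 1.2 and 23.4 in the controls and 22.3 and 24.5 after TET1 siRNA. Only control siRNA replicate 1 was low, and the log2 difference of 0.60 did not pass (limma adjusted p = 0.262); it was -5.6e-04 without that array and 1.20 without control siRNA replicate 2 (limma adjusted p = 0.0299). IFI35, which read 82.5 and 88.3 against 65.6 and 53.2, did not pass (-0.43, limma adjusted p = 0.0805), and EPSTI1 was at 0.16. The antigen processing genes PSMB9, an immunoproteasome subunit, and TAP1, a peptide transporter, did not pass, with log2 differences of -0.25 and -0.08.

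Several of the genes most often used as readouts of interferon were below the filter on average: MX1, MX2, RSAD2 (viperin), OAS2, IFI44, IFI44L, XAF1, BST2 (tetherin), TRIM22, SAMD9L and DHX58. Their 19 probe sets read from 0.4 to 24.8 over the 4 arrays. MX1 read 3.6 and 10.1 against 4.8 and 10.8, and RSAD2 7.6 and 0.5 against 6.3 and 6. At these signals background is a large part of the value, so no fold change is given and no test was made. Both arrays of 1 group lay apart from the other in 6 of the 19 (31.6%), against 33.0% of all probe sets at or below the filter. Those with the groups apart and means that differed by 2-fold or more were BST2 (8.6 and 24.8 against 7.3 and 1.2), DHX58, 1 probe set of IFI44 (6.1 and 5.6 against 14.4 and 10.6), 1 of OAS2 (6.4 and 11.6 against 2.2 and 5.3) and 1 of XAF1 (8 and 7 against 3 and 3.9). Among genes whose brightest probe set was tested, dim further probe sets of HERC6 (1 and 1.2 against 2.1 and 7.8) and TLR3 (6.2 and 4.5 against 1.1 and 2.4) also did.

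Of the 27 tested members that did not pass, 26 had a 95% interval inside -1 to 1 on the log2 scale, the exception being IFI27, and 14 had one inside -0.5 to 0.5. Missing the threshold does not show that these genes were alike in both groups. Because a constant was added to each signal, the log2 difference of a dim gene is smaller than its true change. For dim members such as IFIT2, an interval inside -1 to 1 therefore does not exclude a 2-fold change in signal. The intervals also depend on the variance that limma borrows from other genes. Among all probe sets of the members, 53 were above the filter and, each tested by itself, 6 were higher and 4 lower, against 7.76% and 8.31% of all 27306 probe sets tested. IRF9 missed the threshold in that fit (limma adjusted p = 0.0577). Of the 12 members with more than 1 probe set above the filter, SAMD9 passed in all, EIF2AK2 and PARP9 in 1, the other 9 in none, and none passed in opposite directions.

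**Figure D4:**
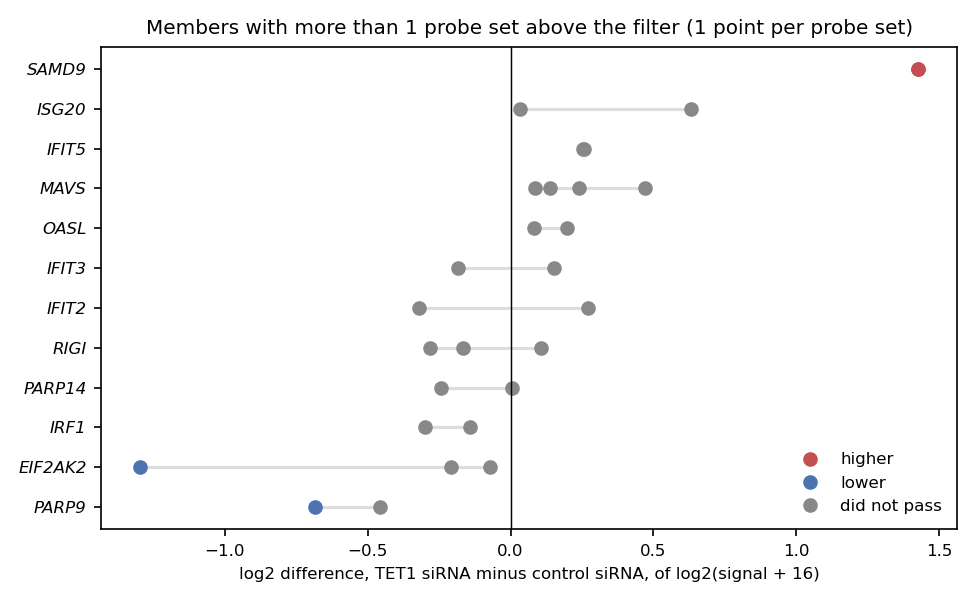
Log2 difference (x axis) of each probe set above the filter, for the 12 members with more than 1 such probe set; red and blue points passed in the fit of single probe sets. The SAMD9 points coincide at 1.42 and 1.43, while those of EIF2AK2 run from -1.30 to -0.07.

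What the risers and fallers share was looked for in their promoters, since the ISRE is the element through which interferon acts on most of these genes. RefSeq promoter windows (GRCh38.p14, 250 bases before to 50 after a transcript start) were found for 40 of the 49 symbols. The ISRE core was searched on both strands as GAAA, any 2 bases, then GAAA. It was in at least 1 window of 25 of the 40 genes (62.5%), against 4.38% of all 27305 genes with a window; by windows it was 53.7% of 54 against 3.57% of 35116. It occurred in 3 of the 5 genes that rose (SAMD9, IFI6 and ISG15, not TBK1 or UBE2L6) and in 4 of the 5 that fell (IFITM1, EIF2AK2, OAS3 and PARP9, not IRF9). It also occurred in 13 of 22 tested members that did not pass and in 5 of 7 below the filter. The motif TTCNNNGAA, the outline of the site that STAT dimers bind, which reads the same on both strands, was in 13 of 40 members (32.5%) against 9.38% of genes; it was in none of the 5 that rose and in IFITM1 and IRF9 among those that fell, and in 5 members it overlapped an ISRE core match. TET enzymes act on the dinucleotide CpG when it is methylated. Its median ratio of observed to expected was 0.83 in the 6 windows of the genes that rose and 0.54 in the 6 of those that fell. It was 0.63 in the 29 windows of members that did not pass and 0.20 in the 12 of members below the filter. Over all member windows it was 0.61, against 0.58 over all windows, and methylation was not measured. These are descriptions of letters only.

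The stretches that hold the ISRE core matches of the genes that passed follow, 5′ to 3′ on the transcript strand, with the matches in capitals, so that risers and fallers can be compared. Each ends 10 bases after the RefSeq start, which for the last stretch is the start of DTX3L. That stretch is printed on the transcript strand of DTX3L, opposite to that of PARP9. The first 3 belong to genes that rose and the next 3 to genes that fell.
SAMD9 (chr7:93117970-93118129, minus strand): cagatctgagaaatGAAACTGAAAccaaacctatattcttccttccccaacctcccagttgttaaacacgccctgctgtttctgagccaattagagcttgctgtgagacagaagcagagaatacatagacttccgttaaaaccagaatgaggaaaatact
IFI6 (chr1:27672183-27672362, minus strand): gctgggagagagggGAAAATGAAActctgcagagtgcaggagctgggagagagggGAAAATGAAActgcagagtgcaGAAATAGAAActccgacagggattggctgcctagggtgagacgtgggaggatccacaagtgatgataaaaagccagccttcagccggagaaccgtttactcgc
ISG15 (chr1:1013367-1013506, plus strand): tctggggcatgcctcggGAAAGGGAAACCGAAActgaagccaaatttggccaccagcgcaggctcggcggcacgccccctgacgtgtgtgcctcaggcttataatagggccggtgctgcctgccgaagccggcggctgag
IFITM1 (chr11:313980-314049, plus strand): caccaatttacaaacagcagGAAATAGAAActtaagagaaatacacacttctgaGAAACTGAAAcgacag
EIF2AK2 (chr2:37156971-37157040, minus strand): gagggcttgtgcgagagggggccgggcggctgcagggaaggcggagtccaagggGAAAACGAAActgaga
OAS3 (chr12:112938324-112938483, plus strand): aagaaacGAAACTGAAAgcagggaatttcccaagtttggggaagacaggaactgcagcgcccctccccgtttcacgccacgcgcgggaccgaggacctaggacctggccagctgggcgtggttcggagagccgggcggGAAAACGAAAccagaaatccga
DTX3L and PARP9 (chr3:122564291-122564347, plus strand): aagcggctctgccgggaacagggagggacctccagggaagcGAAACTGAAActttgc
SAMD9 and the upstream match of OAS3 have the same core letters, GAAACTGAAA, as does the match at the start of IFITM1, although SAMD9 rose and the others fell. These letters are also in ISG20 and DDX60 and, on the other strand, in IFIT3 and IFIT5, none of which passed. Below the filter, BST2 has them too, as do RSAD2 and IFI44 on the other strand. EIF2AK2 and the downstream match of OAS3 share GAAAACGAAA close to the start. HERC5, which did not pass, holds the same letters on the other strand. DTX3L, IFIT5 and TLR3, which did not pass, also have a core match across the start. The last stretch runs between the starts of DTX3L and PARP9, which lie 38 bases apart on opposite strands, and begins 10 bases inside the transcribed part of PARP9. Its single ISRE core, GAAACTGAAA, lies in the windows of both genes, of which PARP9 fell and DTX3L did not pass. The windows of TAP1 and PSMB9, and of CMPK2 and RSAD2, also overlap, and none of these 4 genes passed or, for RSAD2, was tested.

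**Figure D5:**
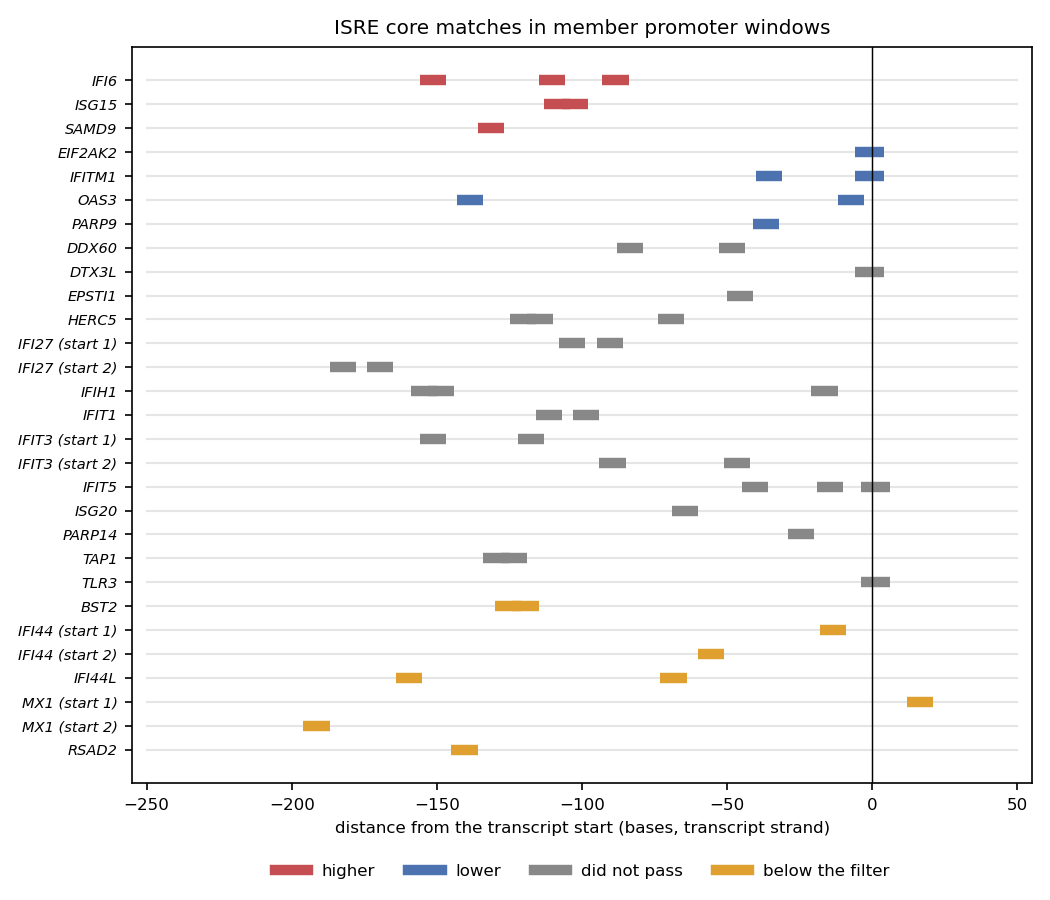
Positions of ISRE core matches (bars, 10 bases long) relative to the transcript start (x axis, in bases) in the RefSeq windows of the 25 members that have one, with 1 row per window that holds a match. Matches of members that rose (red) lie between -156 and -84, those of members that fell (blue) between -143 and 4, and grey and orange rows show members that did not pass or were below the filter.

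The rest of the pathway was read from lists of genes outside the members. Each of these genes was read by its brightest probe set, and further probe sets, such as the other one of TRAF3, are not reported here. Of 18 measured interferon genes, 16 were below the filter, all signals lay between 0.3 and 17.2, and IFNB1, the interferon most cells make first, read 0.6 and 0.6 against 0.8 and 1. Interferon alpha genes are near-identical copies, so their single values are uncertain. Of 10 measured receptor and JAK-STAT genes all were tested, none rose and 2 fell, 20% called against 21.9% of all genes: IL10RB, a subunit of the interferon lambda receptor (-0.46), and STAT3 (-0.45). The interferon alpha receptor genes IFNAR1 and IFNAR2 were at 0.03 and -0.01, both short of the threshold.

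Among 21 tested genes of nucleic acid sensing and relay, 2 rose and 3 fell (23.8%, near the 21.9% of all genes), with a median log2 difference of 0.10. TRAF3, a ubiquitin ligase between MAVS and TBK1, read 136.5 and 137.1 against 67.4 and 68.1 and fell by 0.87 (limma adjusted p = 0.00106). NLRX1, a mitochondrial regulator of MAVS, fell by 0.73, ZCCHC3 fell by 0.46 and the helicase gene ZNFX1 rose by 0.41. Of 17 tested negative regulators of interferon signalling 1 rose, IRF2BP2 (0.52), and 3 fell: TNFAIP3 (A20, -0.66), SOCS3 (-0.51) and the phosphatase gene PTPN11 (-0.39). That is 23.5%, also near 21.9%.

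Of 36 tested interferon-stimulated genes outside the members, 3 rose and 2 fell, or 13.9% against 21.9% of all genes. Their median log2 difference was -0.045, against 0.0098 over all genes. Of the 36, 24 lay below 0 and 12 above, against 6048 of 12389 below 0 over all genes. Whether this list differed from all genes was not tested. CD274, which encodes the checkpoint ligand PD-L1, read 34.7 and 36.8 against 77.1 and 76.8 and rose by 0.85 (limma adjusted p = 0.00438), and LGALS3BP rose by 0.59. APOBEC3G, a cytidine deaminase that restricts retroviruses, read 70.1 and 73.5 against 34.3 and 18.4 (-1.08, limma adjusted p = 0.00416), and LAMP3 had a log2 difference of -0.81. Of 15 tested genes of MHC class I and antigen processing 1 rose, CANX (0.34), and 4 fell, among them HLA-B (-0.42), HLA-F (-0.42) and HLA-G (-0.33); that is 33.3% called against 21.9% of all genes. The list's median was -0.17 against 0.0098 over all genes, and 12 of 15 lay below 0 against 6048 of 12389; the list itself was not tested. HLA genes share much of their sequence, so signals of single HLA probe sets are uncertain.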

How the data were processed

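RNA was measured on Affymetrix GeneChip arrays, 1 per sample, from oligo(dT)-primed cDNA and biotin-labelled cRNA, per the labels' protocols. The values that the authors deposited are linear intensities, and their mean after trimming 2% at either end is alike on all arrays (100.01). The sources used here do not give the software or background step. The array holds 54675 probe sets, of which 62 are controls (not used) and 41091 have 1 gene symbol. Where a gene had several, the brightest on average stood for it. Genes above the median of all probe sets were tested with limma 3.58.1 in R 4.3.3 (eBayes with trend, two-sided, on log2 intensity plus a pseudocount of 16), with adjustment over all 12389 genes. The fit was tested on simulated data, with 50 genes for each true log2 difference. It recovered 8% of them at 0.5, 78% at 1, 80% at -1 and 100% at 2, with 11 false calls. The members and lists were chosen with earlier results of these data known, so no list was tested. Members past the threshold are named with all values, others by role, and up to 4 genes per further list by size. The number of arrays limits the precision. Normalization, pseudocount, filter, choice of probe set, variance model, replicate block, left-out arrays and a 1.5-fold minimum were the 16 alternatives. Same-numbered arrays did not deviate together (Pearson's r 0.0055 over genes), so the numbers were not taken as pairs. Figures were drawn with matplotlib 3.10.9.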

Additional observations from a re-analysis of the deposited data

How the results depend on the processing

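With the call rule kept, SAMD9, IFI6, TBK1, IFITM1 and EIF2AK2 kept their direction and call in each moderated alternative that gave a value, UBE2L6 in all but the fit without a variance trend (limma adjusted p = 0.0504), and OAS3 in all but the mean of all probe sets; all 10 lost the call without moderation of variances. TBK1, IFI6, UBE2L6 and IFITM1 have 1 probe set each, so the choice or averaging of probe sets could not change their log2 differences. EIF2AK2 rested on the same probe set in every alternative but the mean, and its other probe sets did not pass by themselves. IRF9 lost its call in 10 of 15 alternatives, ISG15 in 8 of 14 and PARP9 in 4 of 14, and none of the 10 changed direction. Members higher and lower were 0 and 0 without moderation of variances (limma, 11 members at unadjusted p below 0.05), where TET1 (-1.28) missed the threshold too (adjusted p = 0.0964). Members higher were 3 without a variance trend (all genes 442 higher and 542 lower) and 2 at 1.5-fold or more on the log2(signal + 16) scale (429 and 537), a rule under which TBK1, UBE2L6, ISG15 and IRF9 lose their calls and which is not among the alternatives counted for single genes. Members lower were 3 with no filter on dim probe sets (all genes 905 higher and 854 lower), 3 of 22 with the upper-quartile filter (all genes 1411 and 1257 of 7816), 3 when probe sets of a gene were averaged (all genes 772 higher and 892 lower) and 2 without _x_at and _s_at probe sets (all genes 885 and 909), where fewer members were tested in the last 3. Leaving out 1 array gave 4 to 6 members higher and 3 to 5 lower (all genes 813 to 1159 and 873 to 982, against 1393 and 1316), the 6 and the 3 without control siRNA replicate 2, when IFI27 passed (1.20); the lone array is then assumed to vary like the other group. IFI27 was at -5.6e-04 without control siRNA replicate 1. The members' median log2 difference was 0.029 with median centring, -0.042 with pseudocount 1, 0.045 with no filter, 0.047 with the upper-quartile filter and -0.064 to -0.020 with 1 array left out, so its sign is not settled. With the replicate block 5 members were higher and 5 lower, and the block changed no call of these 10.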
